A study of Mus musculus with 28 samples.

Results

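Keratins are the intermediate filament proteins of epithelial cells. Each filament is built from pairs of a type I and a type II chain, so a cell needs members of both types. In simple epithelia such as the lining of the stomach, the type II keratin Krt8 and the type I keratin Krt18 form the base network, and Krt19 is a further type I partner. The type II keratin Krt7 is known from ducts and glands, and the type I keratin Krt20 from differentiated surface cells of the stomach and the intestine. Krt23 (type I) and Krt80 (type II) are less studied epithelial keratins.

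The data described here are the transcript levels of these 7 keratins, picked by gene symbol from the 49492 gene rows of a table of RNA-seq counts for 28 mouse libraries. Libraries were made from epithelium scraped manually off the corpus, the acid-secreting main body of the stomach. The groups were wild-type (WT) mice and their villin-PPARD littermates at ages of 10 weeks (5 WT and 5 villin-PPARD libraries), 25 weeks (4 and 4) and 55 weeks (5 and 5). PPARD is a nuclear receptor for fatty acids, and the name of the line gives villin, the promoter of a brush border gene that is active in gut epithelium. Sex and strain were not stated by the labels. Library totals ranged from 10982888 to 30891108. All 7 keratins were among the 15812 genes that passed the filter on low counts.

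Ppard itself was 1.48-fold higher in villin-PPARD mice at 10 weeks (110 ± 9.57 against 74.1 ± 8.18 CPM, SD, n = 5), by 1.24 times at the age of 25 weeks and by 1.17 times at the age of 55 weeks. CPM are counts per 1000000 counts of a library, scaled between libraries with TMM factors. The edgeR quasi-likelihood test gave Ppard adjusted p-values of 2.55e-05, 0.0183 and 0.0307. Its ranges did not overlap at 10 weeks and overlapped at 25 and 55 weeks. The table does not separate endogenous Ppard from the transgene. Counts of the villin gene Vil1 were also higher in villin-PPARD than in WT mice, at 142 against 36.9 CPM at 10 weeks and 431 against 44.4 CPM at 55 weeks. The epithelial genes Epcam (272 ± 6.87 CPM, SD, n = 5) and Cdh1 (1576 ± 96.7 CPM) were abundant in WT mice at 10 weeks. The column names tie each library to a library group, which is given in the processing notes.

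The 7 genes lie in the 2 keratin gene clusters of the mouse. In GRCm38 (mm10), chromosome 15 carries Krt80 (101347444-101370162, minus strand), Krt7 (101411043-101430313, plus strand), Krt8 (101996698-102004482, minus strand) and Krt18 (102028180-102032027, plus strand). Krt18 is the type I keratin that lies outside the type I cluster, and 23697 bases separate it from Krt8. Chromosome 11 carries Krt20 (99428403-99438150), Krt23 (99477974-99493137) and Krt19 (100140810-100148665), all on the minus strand. Their main protein-coding transcripts in GENCODE have 9 exons in Krt7, Krt8 and Krt80, 8 in Krt20 and Krt23, 7 in Krt18 and 6 in Krt19. The kit did not mark strand, so reads of overlapping genes on the opposite strand (Gm671 at Krt7, Gm36026 at Krt8 and Gm35853 at Krt80) cannot be told apart from keratin reads. Krt8-ps, a processed copy of Krt8 on chromosome 7, held 0.331% to 0.75% of the Krt8 count.

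PPARD binds DNA with a partner receptor at paired copies of the half-site AGGTCA. RefSeq promoters (GRCm38.p6) were at hand for Krt7, Krt8, Krt18, Krt20 and Krt23. Those of the 4 that hold the half-site are shown from 250 bases before the start site to 30 bases from it onward, on the strand of the gene. Krt7 and Krt20 are shown because they rose most at 55 weeks, and Krt8 and Krt18 because they are the base pair of the network. Capitals mark TATAAA and AGGTCA on either strand, which adjoin in Krt20 and run together as TTTATAAA in Krt8.
Krt7 promoter, chr15:101412153-101412432, plus strand: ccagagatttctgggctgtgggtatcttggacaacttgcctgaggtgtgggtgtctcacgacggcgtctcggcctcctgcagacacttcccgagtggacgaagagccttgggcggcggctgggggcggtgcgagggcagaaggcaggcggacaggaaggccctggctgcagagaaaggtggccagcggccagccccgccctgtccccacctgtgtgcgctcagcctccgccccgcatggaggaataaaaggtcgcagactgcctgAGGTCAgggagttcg
Krt20 promoter, chr11:99438124-99438403, minus strand: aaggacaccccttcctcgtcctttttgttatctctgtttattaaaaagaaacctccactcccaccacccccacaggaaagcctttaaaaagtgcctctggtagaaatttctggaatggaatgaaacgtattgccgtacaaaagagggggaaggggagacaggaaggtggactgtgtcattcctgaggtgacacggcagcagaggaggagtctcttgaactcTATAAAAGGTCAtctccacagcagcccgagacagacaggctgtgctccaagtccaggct
Krt8 promoter, chr15:102004313-102004592, minus strand: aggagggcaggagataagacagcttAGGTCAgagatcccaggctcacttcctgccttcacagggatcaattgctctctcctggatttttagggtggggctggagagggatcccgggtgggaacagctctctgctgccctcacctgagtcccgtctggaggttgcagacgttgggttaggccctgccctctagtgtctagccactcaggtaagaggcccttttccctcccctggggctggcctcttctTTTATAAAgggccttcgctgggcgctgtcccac
Krt18 promoter, chr15:102027966-102028245, plus strand: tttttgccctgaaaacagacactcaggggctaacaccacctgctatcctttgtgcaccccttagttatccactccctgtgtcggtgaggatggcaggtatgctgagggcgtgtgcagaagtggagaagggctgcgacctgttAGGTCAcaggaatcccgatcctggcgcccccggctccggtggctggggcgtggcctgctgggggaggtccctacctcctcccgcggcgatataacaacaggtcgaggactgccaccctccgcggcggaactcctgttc
The search covered both strands of 300 bases, 250 before and 50 from the start site on, counting the start site as position 0. AGGTCA began at 15 in Krt7, at -225 in Krt8, at -108 in Krt18 and at -23 in Krt20, and these letters were not in the Krt23 window. Of all 32851 promoters of this length, 16.3% held it. TATAAA was in Krt20 (beginning at -29) and Krt8 (-1), against 13.6% of all promoters. GGGCGG, the GC box, was found 4 times in Krt7 and in no other of the 5, against 35.7% of all. CACCC was in 4 of the 5, against 57.5%. The PPAR response element (AGGTCA, any base, AGGTCA), the AP-1 letters TGANTCA, the interferon-stimulated response element (GAAA, any pair of bases, GAAA) and the GAS element TTCNNNGAA were in none of the 5 windows. Their shares of all promoters were 0.0396%, 7.81%, 3.44% and 8.3%. Such matches describe letters in a window only. The windows follow RefSeq start sites, which differ from the ends of the GENCODE gene spans given above. The whole Krt7 window lies inside the GENCODE span of Krt7, and the Krt8 start site lies inside that of Krt8.

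Per kilobase of the main transcript, Krt19 and Krt8 were the most abundant keratins in every group. In WT mice at 10 weeks the mean level was 2129 ± 453 CPM per kb for Krt19, 1975 ± 336 for Krt8, 488 for Krt18, 147 for Krt20, 57.2 for Krt23, 9.59 for Krt7 and 1.58 for Krt80 (SD, n = 5). The ranges of Krt19 and Krt8 overlapped, and each of the other neighbours in this order was separated from the next. The order was the same in WT mice at 25 and 55 weeks. In villin-PPARD mice at 55 weeks, Krt20 (716 CPM per kb) stood level with Krt18 (688), with overlapping ranges, and Krt7 (83.5) stood above Krt23 (44.6).

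At 55 weeks Krt20 and Krt7 made up more of the keratin pool in villin-PPARD than in WT mice, and Krt19 less. On the per-length scale Krt20 made up 4.26% ± 0.94 of the 7 keratins in WT and 11.4% ± 1.05 in villin-PPARD mice at 55 weeks (SD, n = 5). Krt7 made up 0.26% and 1.34%, and Krt19 45.7% and 36.8%. Krt8 held 38.4% in both. Type II keratins together made up 38.7% ± 1.76 in WT and 39.8% ± 0.462 in villin-PPARD mice at that age, and 41.5% and 42.9% at 10 weeks. These shares are descriptions without a test of their own.

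**Figure D1:**
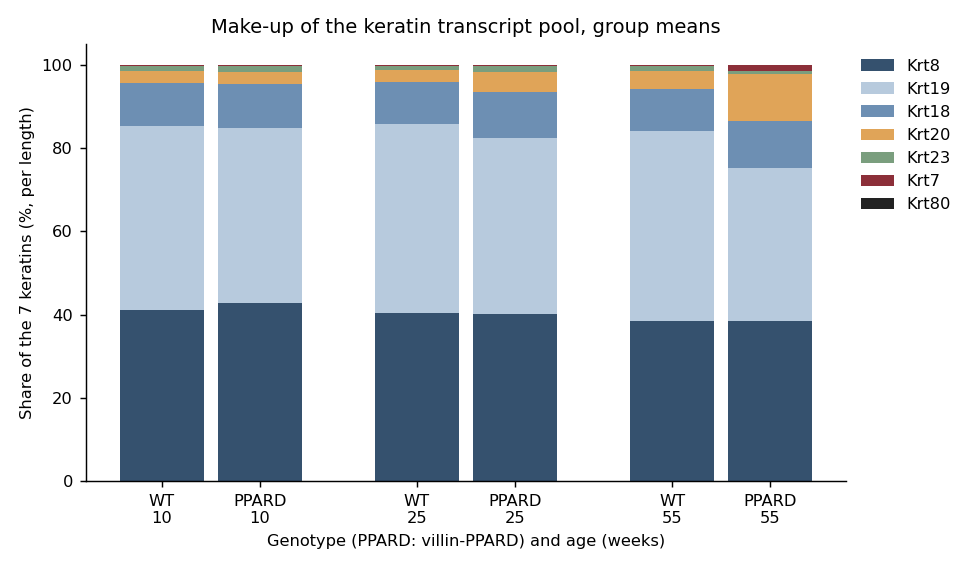
Mean share of each keratin in the summed per-length level of the 7 keratins (%, bars from 0 to 100) for WT and villin-PPARD mice at 10, 25 and 55 weeks. Krt8 and Krt19 fill most of every bar, and Krt20 grows from 4.26% in WT to 11.4% in villin-PPARD mice at 55 weeks.

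The first comparison asks which keratins differed between villin-PPARD and WT mice at 10 weeks. Krt8, Krt18, Krt19, Krt23 and Krt80 were higher in villin-PPARD mice, by 1.4-fold for Krt19 to 2.58-fold for Krt80. Krt7 and Krt20 did not pass the test. Thus 5 of 7 keratins were called higher and 0 lower at an adjusted p under 0.05, where 17.9% of all tested genes were called higher and 16.2% lower. The median log2 difference was 0.59 over the 7 keratins and -0.03 over all tested genes.

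Krt8, the type II base keratin, measured 4000, 3145, 3290, 4150 and 4750 CPM in the WT libraries at 10 weeks, replicates 1 to 5. The villin-PPARD libraries had 6869, 5792, 4948, 6142 and 5792 CPM. Every villin-PPARD library was above every WT library, and the log2 difference was 0.61 ± 0.15 (SE, edgeR adjusted p = 0.00201). Krt18, its type I partner, measured 728, 609, 614, 749 and 809 CPM in WT and 1240, 1044, 929, 1060 and 1018 CPM in villin-PPARD mice. These groups were also separated, with a log2 difference of 0.59 ± 0.11 (SE, adjusted p = 1.43e-04). Krt19, the second type I keratin of simple epithelia, ranged from 2613 to 4236 CPM in WT and from 4099 to 5420 CPM in villin-PPARD mice. Its groups overlapped, and its log2 difference was 0.48 ± 0.15 (SE, edgeR adjusted p = 0.0124).

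Krt23 measured 100, 70.5, 69.2, 97.8 and 110 CPM in WT mice at 10 weeks. In villin-PPARD mice it measured 192, 152, 131, 165 and 172 CPM. The groups were separated, with a log2 difference of 0.86 ± 0.14 (SE, adjusted p = 2.95e-05). Krt80, the least abundant of the 7 genes, measured 5.11, 3.87, 3.27, 5.68 and 6.30 CPM in WT and 16.6, 9.95, 10.9, 12.5 and 12.1 CPM in villin-PPARD mice. Its log2 difference of 1.37 ± 0.22 was the largest of the 7 at this age, also with separated groups (SE, edgeR adjusted p = 2.71e-05). With Krt8, Krt18, Krt23 and Krt80, 4 of 7 keratins had all villin-PPARD libraries above all WT libraries, as did 14.5% of all tested genes.

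Krt7 was at 35.9, 36.4, 36.1, 41.2 and 46.8 CPM in WT and at 36.7, 29.9, 35.7, 48.2 and 40.0 CPM in villin-PPARD mice at 10 weeks. The groups overlapped, and the log2 difference was -0.04 ± 0.26 (SE, edgeR adjusted p = 0.927). Krt20 ranged from 172 to 379 CPM in WT and from 299 to 581 CPM in villin-PPARD mice, a log2 difference of 0.56 ± 0.28 (SE, adjusted p = 0.124). With limma-voom Krt20 was called higher at this age (0.83, limma-voom adjusted p = 0.00293). Its 2 lowest WT libraries, at 173 and 172 CPM, were WT replicates 2 and 3, which also had the lowest Krt8, Krt18, Krt19, Krt23 and Krt80 levels of their group. With the 2 libraries per genotype of the second library group alone, 1 of 7 keratins was called, and the log2 differences of Krt8 and Krt18 were 0.42 and 0.41. Of all genes 1391 were called in that setting, against 5380 in the main test.

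The share of counts from mitochondrial genes, given here without a test, was 4.81% to 11.9% in WT and 1.57% to 4.82% in villin-PPARD libraries at 10 weeks, 5.71% to 14.9% and 4.12% to 6.27% at 25 weeks, and 6.85% to 20.4% and 2.01% to 5.24% at 55 weeks. WT replicates 2 and 3 of 10 weeks, the lowest of their group for 6 of 7 keratins, had its 2 highest shares (11.9% and 10.6%). The part of this share in the keratin differences was not tested.

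**Figure D2:**
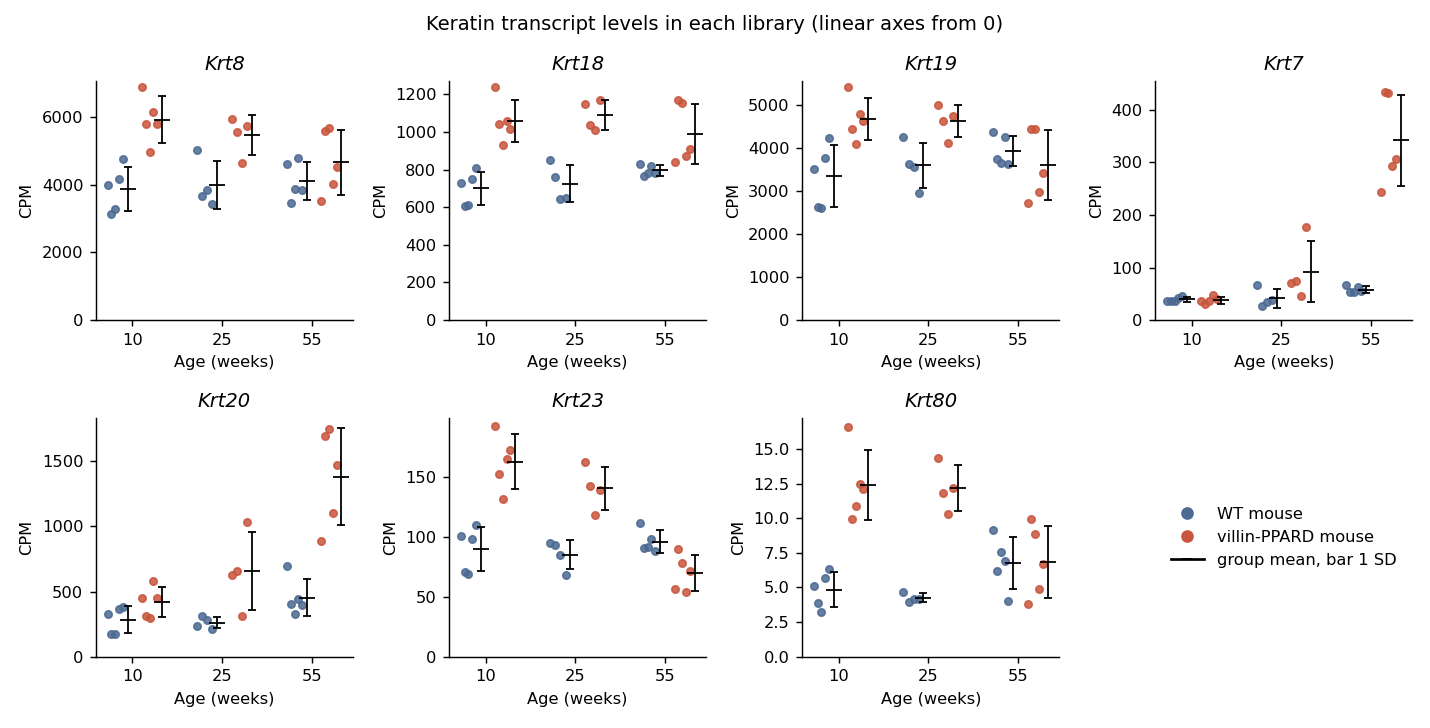
Keratin levels in each library, in CPM on linear axes from 0, against age in weeks. Each point is 1 library (WT or villin-PPARD), and the black bars give the group mean and 1 SD. Krt7 and Krt20 are highest in villin-PPARD mice at 55 weeks, and Krt23 and Krt80 are highest in villin-PPARD mice at 10 and 25 weeks.

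At 25 weeks, 6 of 7 keratins were higher in villin-PPARD mice and Krt19 did not pass the test. The 6 called keratins compare with 21% of all tested genes called higher and 18.6% called lower, and the median log2 difference was 0.72 over the 7 keratins against -0.0063 over all genes. Krt18, Krt23 and Krt80 had separated groups, so 3 of 7 keratins had all villin-PPARD libraries on top, against 14.9% of all genes. Krt7 and Krt20, which had not passed the edgeR test at 10 weeks, were called at this age. The change of their genotype difference between these ages was not called (edgeR adjusted p = 0.300 for Krt7 and 0.479 for Krt20).

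Krt7 measured 67.3, 25.9, 34.9 and 37.5 CPM in WT and 70.6, 74.0, 45.6 and 177 CPM in villin-PPARD mice at 25 weeks. WT replicate 1 was above villin-PPARD replicate 3, and villin-PPARD replicate 4 stood above all others. The log2 difference was 1.14 ± 0.30 (SE, edgeR adjusted p = 0.00364), and it was 0.59 with an adjusted p of 0.0498 when villin-PPARD replicate 4 was left out. The call was lost in a fit of the 25-week groups alone (1.08, adjusted p = 0.0920). Krt20 measured 239, 312, 279 and 216 CPM in WT and 630, 657, 310 and 1033 CPM in villin-PPARD mice. Its log2 difference was 1.33 ± 0.32 (SE, edgeR adjusted p = 0.00179), and 1.01 without villin-PPARD replicate 4, which was again the highest library. That library also had the highest summed squamous markers at this age (25.8 CPM, against 7.22 to 14.4 in the other 25-week libraries) but no count of the squamous keratin Krt5, and their part in the Krt7 and Krt20 values was not tested.

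Krt80 ranged from 3.96 to 4.71 CPM in WT and from 10.3 to 14.3 CPM in villin-PPARD mice at 25 weeks, a log2 difference of 1.51 ± 0.25 (SE, adjusted p = 4.24e-05). Krt23 ranged from 67.8 to 94.6 CPM in WT and from 118 to 162 CPM in villin-PPARD mice, a log2 difference of 0.72 (adjusted p = 6.93e-04). For Krt18 the ranges were 645 to 850 and 1011 to 1171 CPM, with a log2 difference of 0.59 (adjusted p = 4.55e-04). Each of these 3 keratins showed no overlap between the genotypes. Krt8 had a log2 difference of 0.46 ± 0.16 (SE, adjusted p = 0.0283), with WT replicate 1 (5011 CPM) above villin-PPARD replicate 3 (4629 CPM). Its call was lost in a fit of the 25-week groups alone (0.40, adjusted p = 0.0835) and when any one of WT replicates 2, 3 and 4 or villin-PPARD replicates 1 and 4 was left out, with adjusted p-values from 0.0617 to 0.0954. Krt19 had a log2 difference of 0.36 ± 0.16 (SE, adjusted p = 0.0807), and was called without WT replicate 1 (0.45, adjusted p = 0.0476). It was also called with limma-voom (0.45, limma-voom adjusted p = 0.0124) and with scaling by library size alone (0.52, edgeR adjusted p = 0.00472).

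At 55 weeks the called keratins lay in both directions. Krt7 was 5.87-fold and Krt20 3.04-fold higher in villin-PPARD mice, Krt18 was 1.24-fold higher and Krt23 was 1.37-fold lower. Krt8, Krt19 and Krt80 did not pass the test. So 3 of 7 keratins were called higher and 1 lower, where 31.7% of all tested genes were called higher and 27.6% lower. With 7 genes, these counts are not far from those shares. The lower call, Krt23, was lost with scaling by library size alone (log2 difference -0.07) and without villin-PPARD libraries 1 and 4 (-0.27). The median log2 difference was 0.18 over the 7 keratins and 0.03 over all genes.

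Krt7 measured 66.4, 54.1, 52.7, 62.1 and 55.7 CPM in WT mice at 55 weeks. The villin-PPARD libraries had 243, 434, 433, 293 and 306 CPM. The lowest villin-PPARD library was far above the highest WT library, and the log2 difference was 2.55 ± 0.27 (SE, edgeR adjusted p = 1.01e-08). Krt20 measured 693, 403, 331, 443 and 400 CPM in WT (399.5 in replicate 5) and 891, 1693, 1748, 1102 and 1467 CPM in villin-PPARD mice. These groups did not overlap either, and the log2 difference was 1.60 ± 0.29 (SE, edgeR adjusted p = 2.67e-05). Krt18 ranged from 769 to 830 CPM in WT and from 839 to 1169 CPM in villin-PPARD mice. Its groups were just separated, with a log2 difference of 0.31 ± 0.11 (SE, adjusted p = 0.0159), and the call was lost without villin-PPARD replicate 2 (adjusted p = 0.0751) or replicate 3 (0.0693) and in a fit of the 55-week groups alone (adjusted p = 0.0532). These 3 of 7 keratins had all villin-PPARD libraries above all WT libraries, as did 23.9% of all tested genes.

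Krt23 measured 111, 90.5, 91.5, 97.6 and 88.3 CPM in WT and 56.3, 89.6, 78.4, 53.7 and 71.3 CPM in villin-PPARD mice at 55 weeks. Replicate 2 of the villin-PPARD mice lay above the lowest WT library, and the log2 difference was -0.46 ± 0.14 (SE, edgeR adjusted p = 0.00642). Krt80 measured 9.16, 6.21, 7.57, 6.88 and 4.00 CPM in WT (3.999 in replicate 5) and 3.79, 9.91, 8.86, 4.88 and 6.66 CPM in villin-PPARD mice. The groups overlapped throughout, and the log2 difference was -0.0012 ± 0.22 (SE, edgeR adjusted p = 0.997). Krt8 ranged from 3460 to 4794 CPM in WT and from 3502 to 5662 CPM in villin-PPARD mice, a log2 difference of 0.18 ± 0.15 (SE, adjusted p = 0.303). For Krt19 the ranges were 3632 to 4364 and 2719 to 4451 CPM, with a log2 difference of -0.13 ± 0.15 (SE, adjusted p = 0.477).

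**Figure D3:**
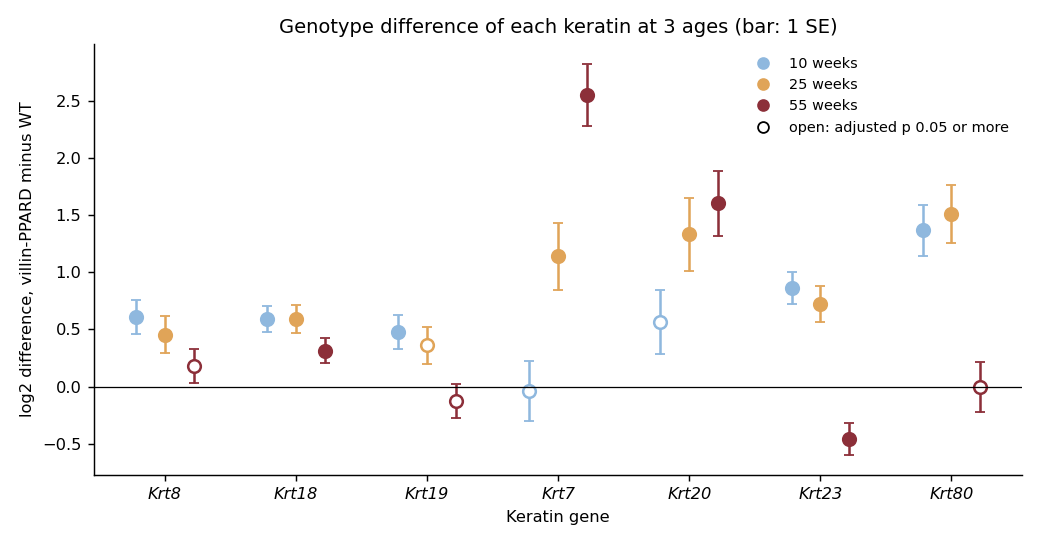
Log2 difference between villin-PPARD and WT mice for each keratin at 10, 25 and 55 weeks, with bars of 1 SE and open circles where the adjusted p was 0.05 or more. Krt7 goes from -0.04 to 2.55 between 10 and 55 weeks, and Krt23 from 0.86 to -0.46.

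Within the villin-PPARD group at 55 weeks, replicates 1 and 4 had the 2 lowest levels of each of the 7 keratins. Their TMM factors were the highest of all 28 libraries (1.39 and 1.33). They also held 742 and 234 counts of Krt5, a keratin of the basal layer of stratified epithelium, against 34 to 91 in the other 3 libraries. Without both libraries the log2 differences at 55 weeks were 2.74 for Krt7, 1.85 for Krt20, 0.44 for Krt18 and 0.35 for Krt8, which was then called (edgeR adjusted p = 0.0489). Krt23 was then at -0.27 and no longer called (edgeR adjusted p = 0.124). This setting was chosen after the data were seen.

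Scaling matters at this age. The villin-PPARD libraries at 55 weeks had TMM factors from 1.19 to 1.39, against 0.905 to 1.03 in WT, and scaling by library size alone moved the median of all genes by 0.40 (log2). With that scaling, 78.9% of the called genes were higher at 55 weeks, against 53.4% with TMM, and at 25 weeks 74.5% against 53%. Krt8 was then called higher (log2 difference 0.57), Krt23 was not called (-0.07), Krt19 stood at 0.26 and Krt80 at 0.38. The directions of Krt7, Krt20 and Krt18 stayed as they were.

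The age comparisons ask how each genotype changed with time. In WT mice 0 of 7 keratins were called by edgeR from 10 to 25 weeks, none had an unadjusted p under 0.05, and 0.0126% of all tested genes were called. From 10 to 55 weeks in WT mice again 0 of 7 were called by edgeR, against 12.7% of all genes. Krt7 (log2 difference 0.57), Krt20 (0.68) and Krt80 (0.50) then had unadjusted p-values of 0.0392, 0.0229 and 0.0366. DESeq2 called 0 and limma-voom 2 of the 7 in that comparison. Over all genes edgeR called 2007 there, 626 with library group as a term and 49 with the second library group alone at 10 weeks.

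In villin-PPARD mice 1 of 7 keratins changed from 10 to 25 weeks, with 2.81% of all genes called. That keratin was Krt7, with a log2 difference of 1.26 ± 0.28 (SE, adjusted p = 0.0188). Without villin-PPARD replicate 4 of 25 weeks the difference was 0.74 and not called (adjusted p = 0.0897). The call was also lost without replicate 1 (1.25, adjusted p = 0.0571) or replicate 2 (1.19, adjusted p = 0.0616) of 10 weeks, and without replicate 3 of 25 weeks Krt20 was called as well (0.89, adjusted p = 0.0406).

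From 10 to 55 weeks in villin-PPARD mice, 2 of 7 keratins rose and 3 fell, against 27.2% of all genes called higher and 24.5% lower. Krt7 rose 8.96-fold (log2 difference 3.16 ± 0.28, SE, edgeR adjusted p = 4.07e-10) and Krt20 3.30-fold (1.72 ± 0.29, adjusted p = 1.28e-05). Every 55-week library was above every 10-week library for both. Krt23 was 2.33-fold lower (log2 difference -1.22 ± 0.14, SE, edgeR adjusted p = 2.16e-08) and Krt80 1.83-fold lower (-0.87 ± 0.21, adjusted p = 0.00101), and all 55-week libraries were below all 10-week libraries. Krt19 had a log2 difference of -0.38 ± 0.15 (SE, adjusted p = 0.0325), with overlapping groups, and its value was 0.03 with scaling by library size alone. Its call was lost without replicate 1 or 4 of 10 weeks or replicate 1, 4 or 5 of 55 weeks (log2 differences from -0.37 to -0.29, adjusted p from 0.0523 to 0.107). Krt8 had a log2 difference of -0.34 with an adjusted p of 0.0515. It was called without replicate 3 of 10 weeks (-0.40) or replicate 2 (-0.41) or 3 (-0.41) of 55 weeks. Krt8 was also called with DESeq2 size factors (-0.37), the DESeq2 Wald test (-0.37), limma-voom (-0.39) and no filter (-0.38). The same held with library group as a term (-0.46) and with WT replicates 2 and 3 of 10 weeks summed (-0.34). It was not called with library size alone (0.06) or without libraries 1 and 4 of 55 weeks (-0.17). Krt18 had a log2 difference of -0.10 with an adjusted p of 0.490. The 55-week libraries all belong to the second library group, and 3 of 5 libraries per genotype at 10 weeks to the first.

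Whether the genotype difference itself changed with age was tested in the same fit. Between 10 and 25 weeks, 0 of 7 keratins changed by edgeR, and 0.00632% of all genes were called. Krt7 was the 1 keratin with an unadjusted p under 0.05 (log2 change 1.18, adjusted p = 0.300). DESeq2 also called 0 and limma-voom called 1. Between 10 and 55 weeks the genotype difference grew for Krt7 (log2 change 2.59 ± 0.37, SE, edgeR adjusted p = 4.62e-06) and Krt20 (1.04 ± 0.40, adjusted p = 0.0400). It fell for Krt23 (-1.32 ± 0.20, adjusted p = 5.18e-06), Krt80 (-1.37 ± 0.31, adjusted p = 8.99e-04) and Krt19 (-0.61 ± 0.21, adjusted p = 0.0224). These 2 and 3 of 7 keratins compare with 18.4% of all genes called higher and 18% lower. The Krt20 call was lost without WT replicate 1, 4 or 5 or villin-PPARD replicate 2 or 3 of 10 weeks, and without WT replicate 2, 3, 4 or 5 or villin-PPARD replicate 2, 3 or 5 of 55 weeks. Its log2 change was then between 0.92 and 1.03, with adjusted p-values from 0.0538 to 0.0787. The Krt20 call was also lost without the filter on low counts (1.01, adjusted p = 0.106), and with the first (0.98) or the second library group (1.15) alone at 10 weeks. The Krt19 call was lost with library size alone (-0.26, adjusted p = 0.241), with the second library group alone at 10 weeks (-0.35, adjusted p = 0.381), and without villin-PPARD libraries 1 and 4 of 55 weeks together (-0.43, adjusted p = 0.104). The Krt80 call was also lost with the second library group alone at 10 weeks (-1.03, edgeR adjusted p = 0.0671).

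Between 25 and 55 weeks the genotype difference changed for 3 of 7 keratins, 1 higher and 2 lower, with 14.3% of all genes called higher and 14.6% lower. These were Krt7 (log2 change 1.41 ± 0.39, SE, edgeR adjusted p = 0.00787), Krt23 (-1.18 ± 0.21, adjusted p = 9.41e-05) and Krt80 (-1.51 ± 0.34, adjusted p = 0.00107). Krt19 (-0.49, adjusted p = 0.0967) was called without villin-PPARD replicate 2 (-0.56) or 3 (-0.56) of 55 weeks. At 25 weeks the libraries were of the first library group, apart from 1 replacement library in WT, and at 55 weeks of the second, so age and library group cannot be told apart here.

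A ratio of 2 keratins within 1 library needs no scaling between libraries. The ratio of Krt7 to Krt8 counts, both type II, was between 0.00897 and 0.0116 in WT and between 0.00517 and 0.00784 in villin-PPARD mice at 10 weeks. At 55 weeks it was between 0.0130 and 0.0156 in WT and between 0.0675 and 0.0777 in villin-PPARD mice. The ratio was therefore lower in every villin-PPARD mouse at 10 weeks (mean log2 difference -0.67) and higher in every one at 55 weeks (2.36). Each gave p = 0.00794 in a two-sided exact permutation test, the smallest that 5 against 5 mice allow, and 0.0238 adjusted over the 9 ratio tests. At 25 weeks the difference was 0.59 (exact permutation p = 0.229, adjusted p = 0.257), and 0.23 without villin-PPARD replicate 4.

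The ratio of the type I keratins Krt19 and Krt18 was between 4.65 and 5.26 in WT and between 3.24 and 3.85 in villin-PPARD mice at 55 weeks. All villin-PPARD mice lay below all WT mice, with a mean log2 difference of -0.45 (exact permutation p = 0.00794, adjusted p = 0.0238). At 25 weeks the groups were also separated, with a difference of -0.23 and the smallest p that 4 against 4 mice allow (exact permutation p = 0.0286, adjusted p = 0.0643). At 10 weeks they overlapped (-0.10, exact permutation p = 0.175, adjusted p = 0.257). The ratio of Krt8 to its partner Krt18 overlapped between genotypes at each age, with log2 differences of 0.02, -0.13 and -0.13 (exact permutation p = 0.516, 0.2 and 0.151, adjusted p = 0.516, 0.257 and 0.257). Across all libraries this ratio lay between 4.18 and 5.95.

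**Figure D4:**
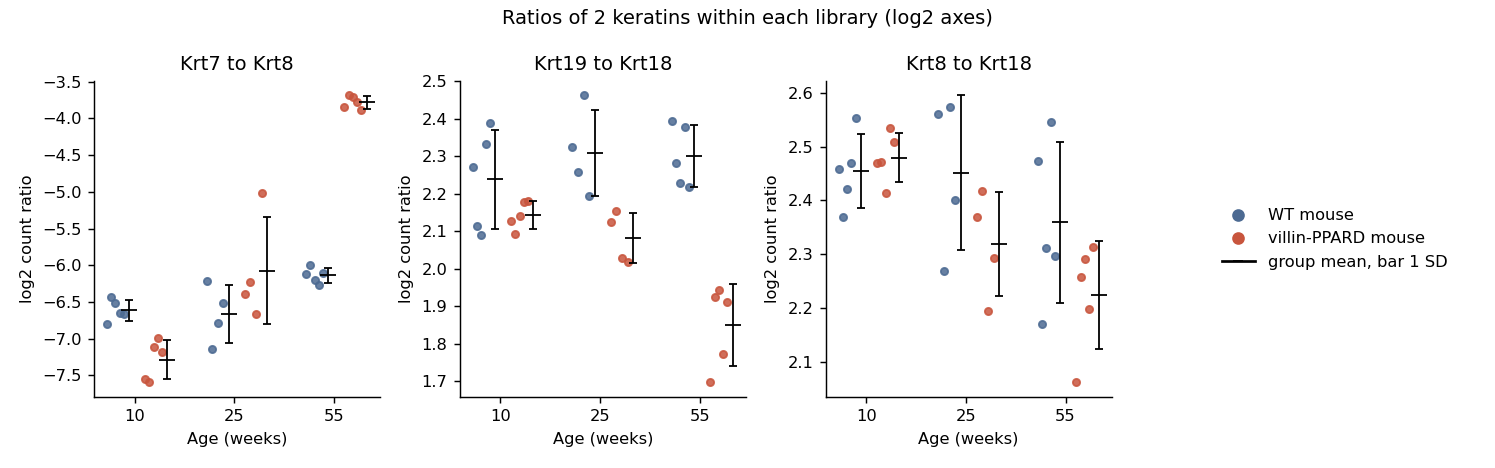
Log2 ratio of the counts of 2 keratins in each library (log2 axes) against age in weeks, with each point 1 library and black bars for the group mean and 1 SD. The Krt7 to Krt8 ratio is lower in villin-PPARD than in WT mice at 10 weeks (-0.67) and higher at 55 weeks (2.36), and the Krt8 to Krt18 ratio overlaps between genotypes at each age.

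The 7 keratins held 99.2% to 99.8% of all keratin counts in each library. Of the 47 other keratin genes in the table, 14 had no count in any library and 14 passed the filter on low counts. In those 14, edgeR called 0 higher and 3 lower at 10 weeks, 1 higher and 0 lower at 25 weeks and, at 55 weeks, 3 higher and 6 lower. Of all tested genes 17.9%, 21% and 31.7% were called higher and 16.2%, 18.6% and 27.6% lower at these ages. The 6 most abundant other keratins were Krt79, Krt12, Krt78, Krt13, Krt5 and Krt10, with means over all libraries from 1.24 to 15.2 CPM. Krt79 averaged 21.5 CPM in WT and 5.41 CPM in villin-PPARD mice at 55 weeks (log2 difference -2.01, edgeR adjusted p = 7.53e-10), and Krt78 7.77 and 1.90 CPM (-2.04, adjusted p = 1.77e-08). Krt13 (-0.99) and Krt10 (-0.75), keratins of stratified epithelium, were also lower, with edgeR adjusted p-values of 0.00173 and 0.00869. Krt12 had a log2 difference of 0.18 (adjusted p = 0.482). Krt5 was higher at 55 weeks (1.76, edgeR adjusted p = 0.0367), with 21.1 and 8.72 CPM in villin-PPARD replicates 1 and 4 and 1.35 to 2.38 CPM in the other 3.

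Keratin filaments are anchored at cell junctions by desmosome, hemidesmosome and plakin proteins. Of 17 tested anchoring genes, 8 were higher and 0 lower at 10 weeks, 6 higher and 1 lower at 25 weeks and, at 55 weeks, 7 higher and 5 lower, with median log2 differences of 0.14, 0.18 and 0.17. Over all tested genes 17.9%, 21% and 31.7% were higher and 16.2%, 18.6% and 27.6% lower at these ages, and the counts of each list stand beside these shares. Pkp3, a desmosomal plaque protein (log2 difference 0.64, edgeR adjusted p = 6.51e-05), Itgb4, an integrin of hemidesmosomes (0.54, 4.13e-04), Pkp2 (0.41, 0.00338) and the plakin Plec (0.44, 0.00350) had the lowest adjusted p-values at 10 weeks. At 25 weeks these were Itga6, the partner of Itgb4 (log2 difference 0.98, edgeR adjusted p = 2.30e-05), the desmosomal cadherins Dsc2 (0.99, 6.50e-04) and Dsg2 (0.89, 0.00103), and again Itgb4 (0.51, 0.00190). At 55 weeks the plakin Evpl was lower (log2 difference -1.56, edgeR adjusted p = 5.15e-11) while its partner Ppl was higher (1.0, 2.02e-09). The desmosomal genes Dsg3 (3.69, adjusted p = 3.34e-08) and Pkp1 (2.42, adjusted p = 3.43e-07) were higher too, from WT means of 0.133 and 0.632 CPM.

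Of 17 genes for proteins that bind, fold, modify or cleave keratins, 7 were higher and 2 lower at 10 weeks, 10 higher and 2 lower at 25 weeks and, at 55 weeks, 5 higher and 5 lower. The medians of their log2 differences were 0.15, 0.28 and 0.05. Sfn, a 14-3-3 protein, was higher at 10 weeks (log2 difference 1.31, edgeR adjusted p = 1.46e-08) and 25 weeks (1.54, 6.73e-09). Fam83h, which ties a casein kinase to keratins, was higher at each age, with log2 differences of 0.80, 0.65 and 0.96 (edgeR adjusted p = 7.19e-06, 3.91e-04 and 5.58e-08). Casp6, a protease that cuts keratins in dying cells, was lower at 55 weeks (log2 difference -0.82, edgeR adjusted p = 2.02e-05). Stub1, a ubiquitin ligase, was lower at 25 weeks (-0.79, edgeR adjusted p = 4.16e-06) and 55 weeks (-0.64, 2.96e-06).

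The other intermediate filament genes gave 2 higher and 1 lower of 7 tested at 10 weeks, 1 of each at 25 weeks and, at 55 weeks, 2 higher and 3 lower, with medians of 0.12, -0.36 and 0.12. At 55 weeks the nuclear lamin Lmnb1 was higher (log2 difference 1.51, edgeR adjusted p = 2.60e-13), and the muscle filament genes Synm (-2.55, 9.32e-12) and Des (-1.11, 0.0149) were lower. Of 22 tested transcription factors of epithelium, 12 were higher and 0 lower at 10 weeks, 11 higher and 1 lower at 25 weeks and, at 55 weeks, 8 higher and 7 lower, with medians of 0.28, 0.35 and 0.16. At 55 weeks Foxa2 was lower (log2 difference -2.27, edgeR adjusted p = 1.38e-13), and Foxa1 (1.25, 4.87e-13) and the ETS factor Ehf (1.92, 4.94e-13) were higher.

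Of 20 tested general epithelial genes, 13, 11 and 14 were higher at 10, 25 and 55 weeks and 0, 0 and 3 lower, with median log2 differences of 0.38, 0.40 and 0.37 against -0.03, -0.0063 and 0.03 over all tested genes. The list includes the adhesion protein Epcam (log2 difference 1.41 at 55 weeks, edgeR adjusted p = 5.19e-14) and the tight junction protein Cldn7 (5.25, 2.57e-10). In bulk RNA, fewer cells of a type and less RNA per cell cannot be told apart. The part of epithelial RNA content in the keratin differences was not tested.

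Marker genes of other cells were also called at 55 weeks, when 31.7% of all tested genes were called higher and 27.6% lower. All 6 pit cell markers were lower (median log2 difference -1.95), as were 8 of 9 parietal cell markers (-4.59) and all 5 tested chief cell markers (-6.56). Of 9 mucous neck and metaplasia (SPEM) markers 6 were higher and 2 lower (median 2.40). All 7 proliferation markers (1.73) were higher. Summed pit cell markers were at 37600 to 77000 CPM in villin-PPARD and 160800 to 213600 CPM in WT mice, and parietal cell markers at 503 to 836 and 5942 to 10300 CPM. Chief cell markers were at 308 to 1339 and 25870 to 98930 CPM, mucous neck and SPEM markers at 18250 to 26730 and 4944 to 6974 CPM, and proliferation markers at 390 to 504 and 155 to 177 CPM. Leukocyte markers were higher for 9 of 10 tested genes, with summed levels of 45.2 to 94.0 CPM in villin-PPARD and 27.1 to 31.1 CPM in WT mice. Of 6 tested intestinal markers 2 were higher and 3 lower (median -0.81), and of 12 stromal and vessel markers 0 were higher and 2 lower (0.15). Intestinal markers summed to 417 to 637 CPM in villin-PPARD and 101 to 127 CPM in WT mice. Of the mean intestinal sums, Vil1 alone made up 431 of 508 CPM in villin-PPARD and 44.4 of 118 CPM in WT mice. Stromal and vessel markers summed to 435 to 690 and 479 to 574 CPM. Of all tested genes 17.9% were called higher and 16.2% lower at 10 weeks, and 21% and 18.6% at 25 weeks. At 10 weeks 9 of 9 parietal (median -0.70) and 3 of 5 chief cell markers (-0.93) were lower, and 5 of 7 proliferation (0.44) and 3 of 9 mucous neck and SPEM markers (0.68) higher. At 25 weeks these were 8 of 9 (-0.95), 4 of 5 (-1.43), 7 of 7 (0.85) and 5 of 9 (0.92). Of 6 pit cell markers, 1 was higher at 10 weeks and 1 lower at 25 weeks. Summed parietal cell markers were at 15290 to 17890 CPM in WT and 9162 to 11480 CPM in villin-PPARD mice at 10 weeks, and at 11620 to 18390 and 4294 to 9883 CPM at 25 weeks. For 10 leukocyte markers edgeR called 0 at both ages.

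Squamous forestomach markers, which could come from tissue at the edge of the corpus, summed to 55.5 to 93.8 CPM in villin-PPARD and 14.6 to 28.8 CPM in WT mice at 55 weeks. Of 13 tested, 4 were higher and 6 lower, and 1 gene, Ivl, made up most of the sum in villin-PPARD mice (mean 53.1 of 74.1 CPM) and little of it in WT mice (3.41 of 21.3 CPM). The higher markers included the basal keratins Krt5 (log2 difference 1.76, edgeR adjusted p = 0.0367) and Krt14 (1.89, 0.00710). Krt14 averaged 3.09 CPM in villin-PPARD and 0.813 CPM in WT mice. The 6 lower markers included Krt13 and Krt10. Trp63, which defines basal squamous cells, averaged 0.167 CPM in villin-PPARD mice and 0.0571 CPM in WT mice, and Krtdap had no count in villin-PPARD mice at that age. Of 2 tested mesothelial markers 1 was higher and 1 lower, and all 6 summed to 12.3 to 27.7 CPM in villin-PPARD and 19.2 to 27.2 CPM in WT mice, with Wt1 at 0 in WT and 0.0132 CPM in villin-PPARD mice. The 2 antral markers summed to 34.4 to 56.7 CPM in villin-PPARD and 5.84 to 9.09 CPM in WT mice. Of them, Pdx1 was higher at 55 weeks (46.3 against 6.49 CPM), and Gast was at 0.433 against 1.30 CPM. The part of these cells in the keratin differences was not tested.

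For each keratin, genes of like pattern were taken from the 3 with the smallest root-mean-square difference of centred log2 CPM over the 28 libraries, among 11860 genes. This measure is a description, since the libraries share their groups. Krt7 was most like Ephb2 (0.32), Prdx6 (0.37) and Plin2 (0.37), against a spread of its own of 1.20. Krt20 was most like the annexin Anxa2 (0.24), Serpinb5 (0.29) and Anxa1 (0.31), with a spread of 0.92. For Krt23 they were Elf4, Ptpn21 and Slc45a3 (0.13 to 0.15, with a spread of 0.48), and for Krt80 Ehd4, Tdrd7 and Tnfrsf1b (0.24 to 0.25, with a spread of 0.66). Krt8 was like Gak and Degs2, Krt18 like Gnai2, Psmd13 and Psmc2, and Krt19 like Gsta4, Efhd2 and Capzb, with differences from 0.083 to 0.10. Ephb2 had log2 genotype differences of 0.48, 1.20 and 2.16 at 10, 25 and 55 weeks, and Anxa2 of 0.67, 1.12 and 1.63. Elf4 had 0.78, 0.63 and -0.33.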

How the data were processed

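Poly-A RNA of scraped corpus epithelium was sequenced as 75-bp paired reads, with the TruSeq RNA kit, per the labels' protocols. This kit keeps no strand information. The authors deposited raw read counts per gene symbol. The submitters' processing notes name TopHat2 (2.0.14), HTSeq (0.6.1), DESeq2 and mm10. Which annotation and which strand option were used for counting is not given in the sources used here. The reads carry no molecular identifiers, so counting error is a lower limit.

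Libraries were grouped by genotype and age from the labels. Column names carry a further tag. Library group 1 is the tag of the 25-week libraries and of 10-week replicates 1 to 3, apart from WT replicate 3 of 25 weeks, whose tag says replacement. Replicates 4 and 5 of 10 weeks and every 55-week library are tagged as library group 2. WT replicates 2 and 3 of 10 weeks were closer than any other pair (chi-square per degree of freedom 4.28, others 15.1 to 168.9), which is above sampling noise but does not show that they are separate mice. They were counted as 2 libraries, and summing them was an alternative, under which 5 keratins were again called at 10 weeks.

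Genes were filtered with filterByExpr and scaled with TMM in R (4.3.3). The two-sided edgeR (4.0.16) quasi-likelihood F test used a single model of the 28 libraries and 10 contrasts, with p-values adjusted by Benjamini-Hochberg over 15812 genes and a threshold of 0.05. An SE was taken as the absolute log2 difference over the root of its F value. The fit was also run on counts simulated from its own estimates of spread, with far fewer changed genes than were called here, balanced in direction. That run does not test the calls in data with so many changed genes. Ratios were compared with exact permutation tests (SciPy 1.17.1). Levels per kilobase use the APPRIS principal transcript of GENCODE. Alternatives were DESeq2 (1.42.0) size factors and its Wald test, library size alone, no filter, only the groups compared, limma-voom (limma 3.58.1) with sample weights, a replicate block, library group as a term (in which the replacement library has its own level and drops out), each library group alone at 10 weeks, and leaving out libraries.

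The members, lists, tests and the naming rule were chosen with earlier results of these data known. The rule names the 7 keratins, the 6 most abundant other keratins, the 4 genes of lowest adjusted p per genotype comparison in the anchoring and binding lists, the 3 of lowest adjusted p at 55 weeks in the filament, transcription factor and general epithelial lists, and 3 genes of like pattern per keratin with a mean of at least 1 CPM. A few of the genes it selects are not reported here. Cell type markers outside it were named after their values were seen.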

Additional observations from a re-analysis of the deposited data

Results flagged for a closer look

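For 5 keratins the difference between villin-PPARD and WT mice at 55 weeks differed from that at 10 weeks by the test of that change in the edgeR fit. The log2 change was 2.59 for Krt7 (from -0.04 to 2.55) and 1.04 for Krt20 (from 0.56 to 1.60). It was -1.32 for Krt23 (from 0.86 to -0.46), -1.37 for Krt80 (from 1.37 to -0.0012) and -0.61 for Krt19 (from 0.48 to -0.13). The Krt19 change was not called with library size alone (-0.26, adjusted p = 0.241). With the second library group alone at 10 weeks, the changes of Krt19 (-0.35), Krt20 (1.15) and Krt80 (-1.03) were not called. The Krt20 change was not called without the filter (adjusted p = 0.106), with the replicate block (0.0502) or without any one of 12 of the 20 libraries. Between 25 and 55 weeks the same test called Krt7 (1.41), Krt23 (-1.18) and Krt80 (-1.51). The summed leukocyte, pit, parietal and chief cell markers moved at 55 weeks too, and their part in these changes was not tested. Dixon's test marked no library in the 42 combinations of keratin and group, and with 4 or 5 libraries it has little power and misses a pair of low libraries.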

How the results depend on the processing

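With the second library group alone at 10 weeks (2 against 2 mice) the count for genotype at 10 weeks was 1 instead of 5. It was 2 instead of 5 for the change of the genotype difference from 10 to 55 weeks. For 25 against 10 weeks in villin-PPARD mice it was 0 instead of 1. The last was also 0 with only the groups compared and ranged from 0 to 2 with single libraries left out. Over all genes the calls with the second library group alone were 1391 instead of 5380, 3245 instead of 5748 and 2 instead of 445. In the last comparison, 436 of all genes were called with only the groups compared. For 55 against 10 weeks in WT mice, 1 keratin was called with only the groups compared, 2 with limma-voom and 1 with the first library group alone at 10 weeks. Of all genes 1969, 2997 and 1913 were called in these settings, against 2007 in the main test. For the change of the genotype difference limma-voom called 1 from 10 to 25 weeks instead of 0, 5 from 25 to 55 weeks instead of 3 and 7 from 10 to 55 weeks instead of 5. Over all genes it called 130 instead of 1, 5478 instead of 4570 and 7040 instead of 5748. With only the groups compared, 4 instead of 6 keratins were called for genotype at 25 weeks, and 4540 instead of 6262 of all genes. Library size alone moved no keratin count by more than 1. The causes of these shifts were not tested. Over all genes, scaling by library size alone raised the share of called genes that were higher from 50.7% to 69.9% for 55 against 10 weeks in WT mice, from 70.8% to 94.3% for 25 and from 52.6% to 83.1% for 55 against 10 weeks in villin-PPARD mice. For the change of the genotype difference it raised it from 50.5% to 79.6% (55 against 10 weeks) and from 49.3% to 73.4% (55 against 25 weeks).

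Values that turned direction were not called in the main test, except Krt19 for 55 against 10 weeks in villin-PPARD mice. Krt7 at 10 weeks was 0.0058 with library size alone, 0.0031 without a filter and 0.0349 with limma-voom, and -0.1678 to 0.0359 with single libraries left out. Krt80 at 55 weeks was 0.38 with library size alone, 0.0128 without a filter, 0.0029 with limma-voom and 0.31 without villin-PPARD libraries 1 and 4, and -0.18 to 0.15 with single libraries left out. Krt19 at 55 weeks was 0.26 with library size alone and 0.0613 without those 2 libraries. For 55 against 10 weeks in villin-PPARD mice, library size alone gave 0.0644 for Krt8, 0.31 for Krt18, which was then called (adjusted p = 0.00666), and 0.0290 for Krt19, and leaving out libraries 1 and 4 gave 0.0298 for Krt18. The change of the genotype difference for Krt18 from 10 to 55 weeks was 0.0723 with library size alone. Of 1062 pairs of a keratin's result and an alternative, 962 kept direction and side of the threshold, 53 lost the call, 26 gained it and 21 turned.

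Replicate numbers did not pair the samples: correlations of same-numbered libraries ran from -0.42 to 0.23. With the replicate block 4, 4 and 5 keratins were called where 5, 5 and 6 had been for the 10-to-55-week change in villin-PPARD mice, the change of the genotype difference and genotype at 25 weeks. The other counts kept their value. In the paired ratio tests with the block, whose smallest p is 0.0625 for 5 pairs, the log2 differences were -0.67 (Krt7 to Krt8 at 10 weeks), 2.36 (at 55 weeks), -0.45 (Krt19 to Krt18 at 55 weeks) and -0.23 (at 25 weeks). The Krt7 to Krt8 difference at 10 weeks was -0.84 with only the first library group and -0.43 with only the second. With single libraries left out the Krt19 to Krt18 difference at 25 weeks ran from -0.27 to -0.18 and the Krt8 to Krt18 difference at 55 weeks from -0.18 to -0.0882, with p = 0.0476 by the exact permutation test without WT replicate 2.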
